A study of Mus musculus with 2 samples.

Results

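To describe how the fat-burning machinery of macrophages stood after IL-4, 36 genes of fatty acid oxidation and lipolysis were examined in RNA-sequencing data. The genes were a fixed list, named for what their proteins do but proposed with earlier results of these data known. All 36 were found among 15623 genes listed in 1 or both libraries. Wild-type C57BL/6 mice aged 6 to 8 weeks received thioglycollate, and the macrophages it drew into the peritoneum were purified by adherence and starved in 0.5% serum. The first library came from nontreated cells (NT) and the other from cells given 20 ng/mL IL-4 for 6 h, a cytokine of type 2 immunity that turns macrophages toward the M2 (alternative) state, so the 2 groups held 1 library each. One label calls the tissue bone marrow and another calls the cells peritoneal macrophages, and how many animals gave each library was not given in the sources used here. With 1 library per group there is no replicate check of any value, and treatment and library cannot be told apart.

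Fatty acids reach oxidation through a chain of steps. Lipases free them from stored triglyceride and cholesteryl ester, acyl-CoA synthetases activate them, and the carnitine shuttle carries them into mitochondria. There the beta-oxidation spiral removes acetyl-CoA through dehydrogenation, hydration, a further dehydrogenation and thiolysis, while electron transfer flavoprotein passes the electrons on to the respiratory chain. Peroxisomes shorten very long and branched chains by a parallel route. M2 macrophages are known for their use of fatty acid oxidation, which the coactivator PGC-1β and lysosomal lipolysis have been linked to.

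Most of these genes differed little between the libraries, and 32 of 36 had a log2 ratio of IL-4 over NT under 0.6 in size. Calls required a log2 ratio of 0.75 or more in either direction and a 95% counting interval that excluded 0. The log2 ratio was taken from counts scaled to the library totals with 0.5 count added, and the interval covers counting error only. Of the 36 genes, 2 (Hsd17b10 and Ppargc1b) were called higher, or 5.56%, against 4.07% of 15593 genes tested. Another 2 (Mgll and Ppargc1a) were called lower, also 5.56%, against 6.28% of the genes tested. Both shares were near the background. On the log2 scale the ratio had a median of 0.11 over the 36 genes, beside -0.03 over all genes tested.

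Within these small differences, intervals above 0 were more frequent in the list than intervals below 0. In 35 of the genes the library with more reads gave at least 50 expected counts, and 17 of these had an interval wholly above 0 (48.6%), against 26% of 9925 genes with as many counts. An interval wholly below 0 was seen for 6 of the 35 genes (17.1%), against 29% of the 9925 genes. The other 12 had intervals that included 0. Such intervals narrow with abundance and say nothing of variation between animals. Across the series, longer transcripts had lower ratios. When each gene was set against the median of its 500 nearest neighbours in length, 15 of the 35 had an interval above 0, against 23.2% of the 9925 genes, and 7 below 0, against 25.8%.

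The libraries were of similar depth, with 11035641 expected counts in NT and 11250099 in IL-4. All 7 macrophage markers were listed in both libraries, with summed levels of 14899 FPKM in NT and 14763 FPKM in IL-4, of which Lyz2 alone gave 11289 and 10811 FPKM. Of the 7, Csf1r was called higher (6236 counts in NT and 11896 in IL-4, a log2 ratio of 0.90) and Cd14 was called lower (1219 and 591 counts, -1.07). The other 5 (Adgre1, Cd68, Itgam, Lyz2 and Mertk) were not called, with log2 ratios from -0.06 to 0.42. Summed levels of the T cell, B cell, neutrophil, eosinophil and mast cell lists ran from 1.06 to 8.86 FPKM, each list being lower in IL-4. Of their genes only the eosinophil marker Siglecf was called, and it was lower (53 counts in NT and 27 in IL-4, a log2 ratio of -0.99). Fibroblast and mesothelial markers summed to 38.5 FPKM in NT and 34.1 FPKM in IL-4, and of these Msln was called lower on few reads (12 and 2 counts). Of 7 adipocyte markers, Plin1, Cidec, Lep, Car3 and Cfd were listed in neither library and Retn had 1 count in NT, but Adipoq had 139 counts in IL-4 and was not listed in NT. Set against a floor of 3 counts, Adipoq was at least 45.5-fold higher. In bulk RNA, fewer cells of a type and less RNA per cell cannot be told apart.

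**Figure D1:**
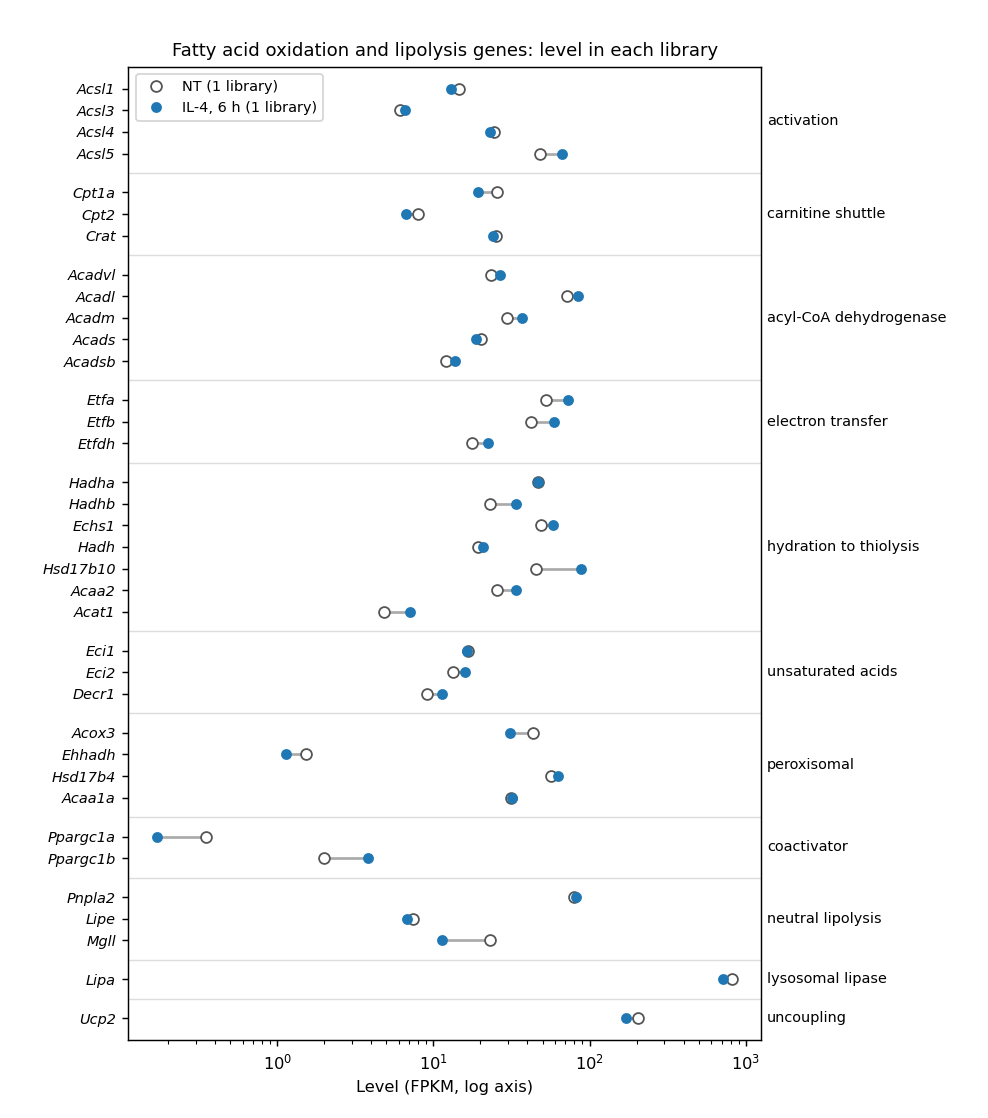
Level of each of the 36 genes in the NT library (open circles) and the IL-4 library (filled circles), in FPKM on a log axis, grouped by step of the pathway. Levels ran from 0.17 FPKM for Ppargc1a to 817 FPKM for Lipa, and most pairs of circles lie close together.

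In levels per length, the most abundant gene of the list was a lysosomal lipase. FPKM scales fragments to transcript length and to library depth, so levels may be compared between genes. Lipa (chromosome 19, 34492316 to 34527474, GRCm38), the lysosomal acid lipase that frees fatty acids from cholesteryl ester and triglyceride, had 817 FPKM in NT and 721 FPKM in IL-4. It alone held 42.1% of the summed FPKM of the 36 genes in NT and 37% in IL-4. From 27133 expected counts in NT and 24398 in IL-4, its log2 ratio was -0.18 (interval -0.21 to -0.16). The interval excluded 0, but the ratio was far from the limit of a call.

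Ucp2 (chromosome 7, 100493337 to 100499629), a carrier of the inner mitochondrial membrane, was next with 205 FPKM in NT and 171 FPKM in IL-4. Its counts were 3571 and 3035, a log2 ratio of -0.26 (interval -0.33 to -0.19). The 3 remaining genes of the 5 with the highest mean level were Pnpla2, Acadl and Hsd17b10, given with their steps below. Of the 36 genes, 28 had at least 10 FPKM in both libraries. The median level was 24 FPKM in NT and 23.7 FPKM in IL-4.

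In neutral lipolysis the last step differed from the first. Pnpla2 (chromosome 7, 141455188 to 141460743), the adipose triglyceride lipase that removes the first acyl chain, had 79.2 FPKM in NT and 82.2 FPKM in IL-4. Its counts were 2316 and 2449, and its log2 ratio of 0.05 had an interval from -0.03 to 0.14 that included 0. Lipe, the hormone-sensitive lipase that acts on diacylglycerol, had 252 counts in NT and 246 in IL-4, a log2 ratio of -0.06 (interval -0.32 to 0.20). For both of these lipases a difference between the libraries was not detectable at this depth. Of the exon bases of Lipe, 15.6% overlap the antisense gene 4732471J01Rik, so its value is uncertain.

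Mgll (chromosome 6, 88724412 to 88828360), the monoacylglycerol lipase that completes the release of fatty acids and also breaks down the endocannabinoid 2-arachidonoylglycerol, fell from 949 to 472 counts. Its level was 23.1 FPKM in NT and 11.3 FPKM in IL-4. The log2 ratio was -1.03 (interval -1.20 to -0.87), and the whole interval lay past the limit. This was the lowest ratio of the 36 genes, about equal to that of Ppargc1a. With the length trend subtracted the interval was -1.17 to -0.84, and Mgll lost its call only with an assumed coefficient of variation of 0.4 between animals. The level of Pnpla2 was 3.43 times that of Mgll in NT and 7.27 times in IL-4.

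Neither annotated start of Mgll carried the motifs searched for here. The window of the upstream start (chr6:88724162-88724461, plus strand, RefSeq, GRCm38.p6) is shown because this gene had the lowest ratio. Capitals mark the first transcribed base and those after it, and the window holds 32 CpG dinucleotides, beside a median of 7 over all promoters.
Mgll: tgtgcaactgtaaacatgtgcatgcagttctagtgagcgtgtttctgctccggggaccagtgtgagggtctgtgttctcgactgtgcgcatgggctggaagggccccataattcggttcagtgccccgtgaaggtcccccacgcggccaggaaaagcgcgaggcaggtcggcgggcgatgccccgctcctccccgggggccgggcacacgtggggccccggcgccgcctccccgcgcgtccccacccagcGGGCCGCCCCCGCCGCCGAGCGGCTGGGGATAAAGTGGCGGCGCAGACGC

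Activation of fatty acids to their CoA esters was carried by 4 long-chain acyl-CoA synthetases, none of which was called. Acsl5, an enzyme of mitochondria and endoplasmic reticulum, was the most abundant and had the highest ratio of them. It had 1705 counts in NT and 2376 in IL-4, or 48.5 and 66.2 FPKM, a log2 ratio of 0.45 (interval 0.36 to 0.54). Acsl1, which is tied to both oxidation and lipid storage, had 639 counts in NT and 575 in IL-4, a log2 ratio of -0.18 (interval -0.35 to -0.02). The intervals of these 2 genes did not overlap, a pair compared after the values were seen. That of Acsl1 included 0 (-0.26 to 0.07) with the length trend subtracted. Acsl4, which prefers arachidonic acid, had 1375 counts in NT and 1320 in IL-4, a log2 ratio of -0.09. Acsl3, which acts on lipid droplets, had 261.26 and 289.67 counts, a log2 ratio of 0.12. Both intervals included 0, although that of Acsl4 lay above it (0.02 to 0.24) with the length trend subtracted.

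The transferases of the carnitine shuttle had ratios under 0. Cpt1a, the outer-membrane transferase that sets the rate of entry into mitochondria, had 1240 counts in NT and 953 in IL-4, or 25.7 and 19.4 FPKM. Its log2 ratio was -0.41 (interval -0.53 to -0.28), and it was -0.30 with the length trend subtracted. Cpt2, which restores the acyl-CoA inside, had 210 counts in NT and 178 in IL-4, a log2 ratio of -0.27 (interval -0.56 to 0.03). Crat, which makes acetylcarnitine, had 1231 and 1210 counts, a log2 ratio of -0.05 (interval -0.17 to 0.06). Cpt1a was the one whose interval excluded 0. With the length trend subtracted, the interval of Cpt2 excluded 0 as well (-0.63 to -0.04). None of the 3 had a ratio over 0 before the length trend was subtracted, and Crat had 0.06 after it.

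Of the acyl-CoA dehydrogenases, which open each round of the spiral, 4 of 5 had intervals above 0 and none was called. Acadl (chromosome 1, 66830839 to 66863309), the long-chain enzyme, was the most abundant with 72.1 FPKM in NT and 84.7 FPKM in IL-4. Its counts were 1549 and 1856, a log2 ratio of 0.23 (interval 0.13 to 0.33). Acadm, for medium chains, had 677 counts in NT and 855 in IL-4, a log2 ratio of 0.31. Acadvl, for very long chains, had 571 and 661 counts, a log2 ratio of 0.18. Of the exon bases of Acadvl, 42.9% overlap Dvl2 on the opposite strand, and whether the counting used strand was not given, so its value is uncertain. Acadsb, which acts on short branched chains, had 446 and 525 counts, a log2 ratio of 0.21. Acads, for short chains, had 415 and 397 counts and a log2 ratio of -0.09 (interval -0.29 to 0.11). With the length trend subtracted, the ratios of the 5 ran from -0.22 for Acads to 0.23 for Acadsb. The interval of Acads then lay below 0 (-0.42 to -0.02), and that of Acadvl included 0 (-0.04 to 0.29).

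None of the electron transfer genes was called, and all 3 had intervals above 0. Etfa and Etfb encode the subunits of the flavoprotein that takes electrons from these dehydrogenases. Etfa had 845 counts in NT and 1199 in IL-4, and Etfb had 421 and 598. Each had a log2 ratio of 0.48, with intervals from 0.35 to 0.61 and from 0.30 to 0.66. The level of Etfa was 1.24 times that of Etfb in both libraries. Etfdh, the membrane oxidoreductase that hands the electrons to ubiquinone, had 448 counts in NT and 577 in IL-4, a log2 ratio of 0.34. With the length trend subtracted, the 3 ratios ran from 0.27 to 0.33. In the GENCODE annotation, 53% of the exon bases of Etfb are shared with Gm45233 on the same strand, so the value of Etfb is uncertain.

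Hsd17b10 (chromosome X, 152001896 to 152004442), a mitochondrial 3-hydroxyacyl-CoA dehydrogenase that is also a subunit of mitochondrial ribonuclease P, had the highest ratio of the 36 genes. It rose from 463 to 913 counts, a 1.93-fold difference, with levels of 45.7 FPKM in NT and 88.4 FPKM in IL-4. The log2 ratio was 0.95 (interval 0.79 to 1.12). Its transcript of 938 bases is the second shortest of the list, and genes of that length had a median log2 ratio of 0.20. With this subtracted, the ratio was 0.76 (interval 0.59 to 0.92), just past the limit. It was not called at a log2 limit of 1 or with an assumed coefficient of variation of 0.4.

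The window around the start of Hsd17b10 (chrX:152001646-152001945, plus strand) is shown because this gene had the highest ratio. Capitals again mark the first transcribed base and those after it. It holds 15 CpG dinucleotides and none of the motifs searched for.
Hsd17b10: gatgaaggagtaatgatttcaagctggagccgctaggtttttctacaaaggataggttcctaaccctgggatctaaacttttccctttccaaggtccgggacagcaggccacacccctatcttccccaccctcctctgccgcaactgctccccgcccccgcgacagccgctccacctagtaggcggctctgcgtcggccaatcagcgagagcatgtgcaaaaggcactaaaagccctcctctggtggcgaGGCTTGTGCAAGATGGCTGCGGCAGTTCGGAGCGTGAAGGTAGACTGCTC

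The other genes of hydration, dehydrogenation and thiolysis were not called, but 4 of these 6 had intervals above 0. Echs1, the short-chain enoyl-CoA hydratase, had 803 counts in NT and 969 in IL-4, a log2 ratio of 0.24. Acat1, the acetoacetyl-CoA thiolase that also serves ketone bodies, had 180 and 271 counts, a log2 ratio of 0.56 (interval 0.29 to 0.84). Acaa2, the thiolase that ends the round, had 420 and 563 counts, a log2 ratio of 0.39. Hadh, the classical 3-hydroxyacyl-CoA dehydrogenase, had 382 and 419 counts, and its log2 ratio of 0.11 had an interval that included 0. With the length trend subtracted, Acat1 had 0.58 and Echs1 had 0.11.

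Hadha and Hadhb encode the alpha and beta subunits of the mitochondrial trifunctional protein, which carries out hydration, dehydrogenation and thiolysis of long chains. Hadha had 1992 counts in NT and 2032 in IL-4, a log2 ratio of 0.00 (interval -0.09 to 0.09). Hadhb had 525 counts in NT and 778 in IL-4, a log2 ratio of 0.54 (interval 0.38 to 0.70). The intervals of the subunits did not overlap. Hadhb less Hadha came to 0.54 on the log2 scale, with a 95% counting interval of 0.36 to 0.72, and to 0.38 with the length trend subtracted. The level of Hadha was thus 2.01 times that of Hadhb in NT and 1.39 times in IL-4. This pair was compared after the values were seen.

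The subunit genes lie head to head on chromosome 5, with 273 bases between their starts. The window of Hadhb (chr5:30155003-30155302, plus strand) is shown because it covers most of the stretch that separates them. The window of Hadha on the minus strand shares 228 bases with it, and the 9 capitals fall in the shared part. They mark the match to TTCNNNGAA, a spacing of the palindrome bound by STAT factors, at 30155128 to 30155136.
Hadhb: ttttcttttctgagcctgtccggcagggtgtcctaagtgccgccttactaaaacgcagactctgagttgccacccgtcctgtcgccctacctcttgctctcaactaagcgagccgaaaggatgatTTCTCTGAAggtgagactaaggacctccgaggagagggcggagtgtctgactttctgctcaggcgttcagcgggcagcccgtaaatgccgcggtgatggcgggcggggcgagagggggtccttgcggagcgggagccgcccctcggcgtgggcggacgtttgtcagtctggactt

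Motifs were searched on both strands in 33 RefSeq promoters (250 bases before to 50 after each start) of the 30 members that could be matched. The other 6 members (Acaa2, Acat1, Crat, Decr1, Hsd17b4 and Ppargc1b) had no promoter entry. Their promoters were not searched, so nothing is known here of motifs at Ppargc1b, which was called higher. The N3 palindrome, TTCNNNGAA, was found in 4 of these promoters (12.1%), those of Cpt2, Hadha, Hadhb and Lipe, against 8.30% of 32851 promoters. The Hadha and Hadhb matches are the same 9 bases. The N4 palindrome, TTCNNNNGAA, the spacing preferred by STAT6, was found in 0 of the 33, against 6.95% of all promoters. The ERR motif TNAAGGTCA (1.28% of all promoters) and the PPAR motif AGGTCANAGGTCA (0.0396%) were also found in 0 of the 33. These motifs share letters, since both of the latter contain AGGTCA. A match describes letters only, and the promoters of genes that were not called were searched after the values were seen.

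The auxiliary enzymes that prepare unsaturated chains for oxidation were not called. Decr1, the dienoyl-CoA reductase, had 311 counts in NT and 394 in IL-4, a log2 ratio of 0.31 (interval 0.10 to 0.53). Of the enoyl-CoA isomerases, Eci2 had 217.86 counts in NT and 272 in IL-4, a log2 ratio of 0.29 (interval 0.03 to 0.56). Eci1 had 197.67 and 199.21 counts, a log2 ratio of -0.02 (interval -0.31 to 0.27). Expected counts of both isomerases were not whole, as for Acsl3 and Ppargc1a, so reads that could also belong to other genes were divided by estimate.

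None of the 4 peroxisomal enzymes was called. Acox3, which starts the oxidation of branched chains, had 1914 counts in NT and 1402 in IL-4, or 43.2 and 31 FPKM. Its log2 ratio was -0.48 (interval -0.58 to -0.38), the lowest of the enzymes that were not called. Hsd17b4, the D-bifunctional protein, had 1687 and 1915 counts, a log2 ratio of 0.16 (interval 0.06 to 0.25). Acaa1a, the peroxisomal thiolase, had 604 and 625 counts and a log2 ratio of 0.02, and its close copy Acaa1b was listed in neither library. Ehhadh, the L-bifunctional protein, was scarce, with 51 counts in NT and 39 in IL-4, a log2 ratio of -0.41 (interval -1.05 to 0.22). A difference in Ehhadh was not detectable at this depth.

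The coactivators of the oxidative program differed in opposite directions and were the least abundant of the list with Ehhadh. Ppargc1b (chromosome 18, 61291445 to 61400756), which encodes PGC-1β, rose from 81 to 158 counts, a 1.91-fold difference, with levels of 1.99 FPKM in NT and 3.81 FPKM in IL-4. Its log2 ratio was 0.93 (interval 0.54 to 1.34), and 0.97 with the length trend subtracted. The call was lost with FPKM plus 1, at a log2 limit of 1 and with an assumed coefficient of variation of 0.4.

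Ppargc1a (chromosome 5, 51454249 to 52115853), which encodes PGC-1α, the coactivator that dominates in brown fat and muscle, was close to the limit of detection. It had 25 counts in NT and 12.27 in IL-4, or 0.35 and 0.17 FPKM. The log2 ratio was -1.03 (interval -2.21 to -0.04). With the length trend subtracted it was -0.71 (interval -1.90 to 0.27), and the call was lost. FPKM with 0.1 or 1 added and an assumed coefficient of variation of 0.2 or 0.4 also ended it. In FPKM, Ppargc1b was 5.69 times as abundant as Ppargc1a in NT and 22.4 times in IL-4, the latter resting on about 12 counts of Ppargc1a.

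**Figure D2:**
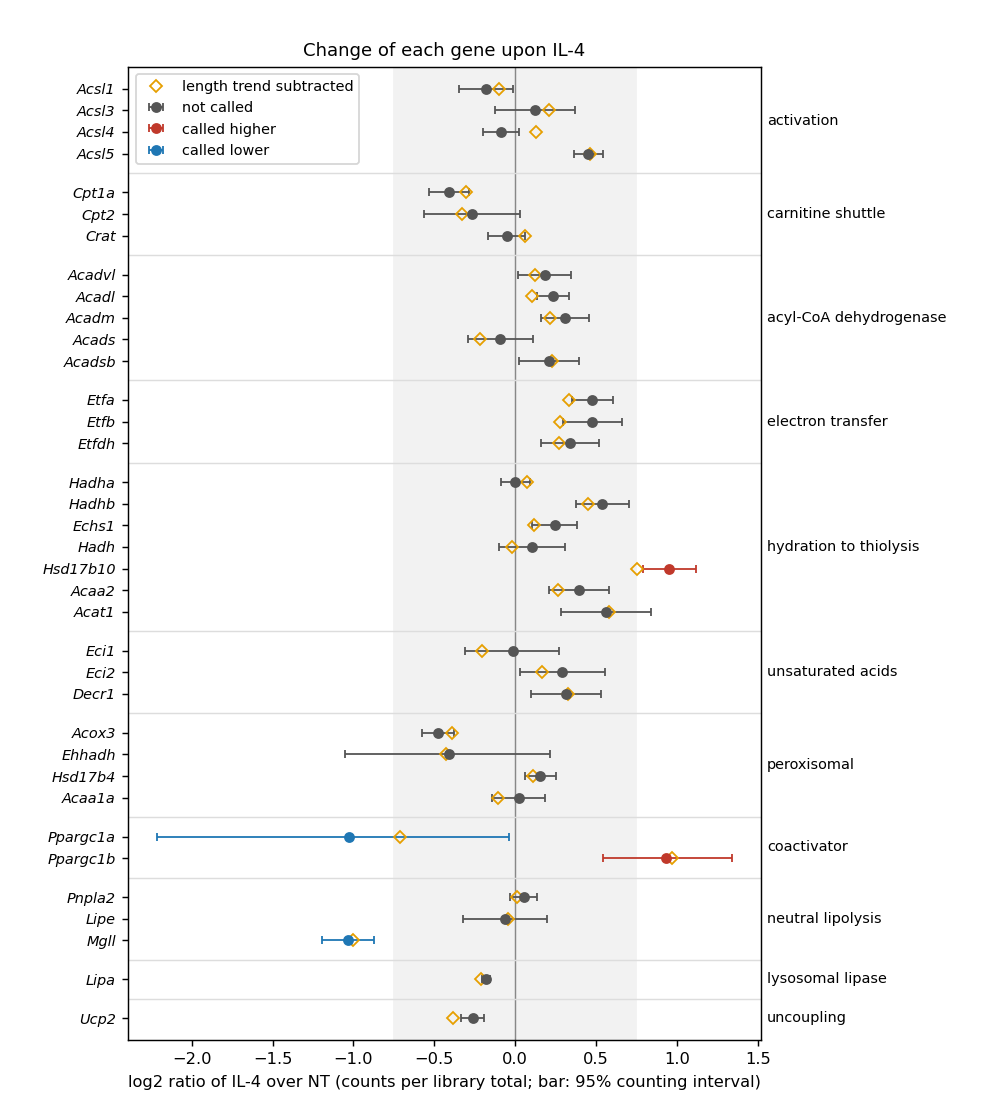
Log2 ratio of IL-4 over NT for the 36 genes (filled circles) with 95% counting intervals (bars), grouped by step, the band marking ratios within 0.75 of 0. Diamonds give the ratio with the length trend subtracted; Hsd17b10 and Ppargc1b lie above the band and Mgll and Ppargc1a below it, but the diamond of Ppargc1a, at -0.71, lies inside.

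Across the 36 genes, the ratio followed transcript length as it did across the series. The Spearman correlation of log2 ratio with length was -0.46 over the 36 genes and -0.45 over 8461 genes with at least 200 counts, given as a description since all points share the same 2 libraries. The 17 genes shorter than 2500 bases had a median log2 ratio of 0.24, and the 19 longer ones had -0.05. Genes of the series matched to the former in length had a median of 0.13, and those matched to the latter had -0.03. The cause of this trend was not tested. The median ratio of the list was nearly the same after subtraction of the trend, at 0.11, beside -0.04 over all genes tested.

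**Figure D3:**
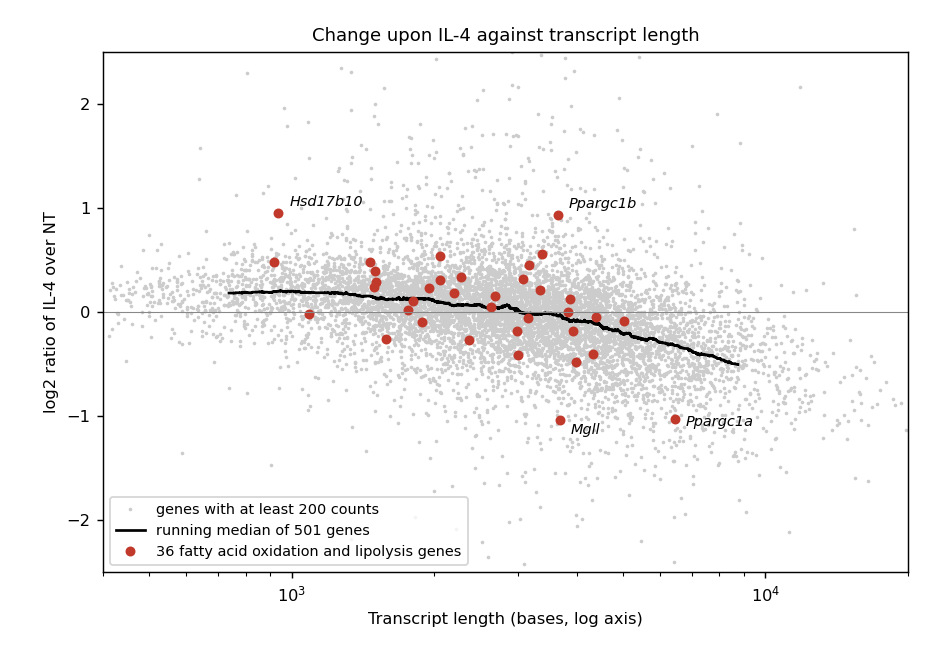
Log2 ratio of IL-4 over NT against transcript length (bases, log axis) for genes with at least 200 counts (grey), their running median over 501 genes (line) and the 36 genes (red circles). A further 52 grey genes lie outside the axes; Hsd17b10 and Ppargc1b stand above the line and Mgll below it, while Ppargc1a lies at the long end where the line itself is negative.

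To place the list among its neighbours, 73 other genes of fatty acid handling were examined, of which 66 were listed in 1 or both libraries. Of these 66, 7 were called higher (10.6%) and 1 was called lower (1.52%), read against the 4.07% and 6.28% given above. The median log2 ratio of the 66 was 0.05. The remaining 58 were not called, among them the carnitine carrier Slc25a20 at -0.07, the droplet coat Plin2 at 0.21 and the ATGL activator Abhd5 at 0.09. The 6 called higher with at least 50 counts had roles in uptake, activation, peroxisomal import, ketone and leucine breakdown, and regulation. The numbers called depended on the limit of 0.75. At a fold over 1.5, 8 of the 66 were called higher and 4 lower, against 5.52% and 8.84% of all genes tested. Lpl, Fabp3 and Acss2 were then among the lower genes. At a log2 limit of 1, 5 were higher, without Cd36 and Oxct1, and 1 was lower. The neighbours were chosen with earlier results of these data known.

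Cd36 (chromosome 5, 17781690 to 17888959), a fatty acid and lipoprotein receptor, was the only gene of fatty acid uptake and binding that was called. It rose from 18386 to 31898 counts, and its level from 467 to 795 FPKM. At 0.77 its log2 ratio was close to the limit (interval 0.74 to 0.79), and 0.75 (just below the limit) with the 100 most abundant genes left out of the total. In the same group, Lpl (-0.69), Fabp3 (-0.64), Fabp5 (-0.30) and Slc27a4 (-0.22) had intervals below 0. Fabp4 (0.26) had an interval above 0, and those of Slc27a1 and Dbi included 0. Abcd2 (chromosome 15, 91145871 to 91192007), which brings very long acyl-CoA into peroxisomes, rose from 339.45 to 769.29 counts, which gave 1.15 on the log2 scale (interval 0.97 to 1.34). Acss1 (chromosome 2, 150618111 to 150668240), the mitochondrial acetyl-CoA synthetase, rose from 316 to 822.88 counts, which gave 1.35 (interval 1.16 to 1.54). Cd36, Abcd2 and Acss1 differed by more than counting error. Expected counts of Abcd2, and of Acss1 in IL-4, were not whole, so some reads were divided by estimate. The intervals do not cover that uncertainty.

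Oxct1 (chromosome 15, 4026428 to 4155344), which lets mitochondria burn ketone bodies, rose from 4980 to 8787 counts, or from 128 to 222 FPKM, a log2 ratio of 0.79 (interval 0.74 to 0.84). Auh (chromosome 13, 52835107 to 52929704), a hydratase of leucine breakdown that also binds AU-rich RNA, rose from 132 to 380 counts, which gave 1.49 (interval 1.21 to 1.79). Pparg (chromosome 6, 115360879 to 115490404), the nuclear receptor partnered by these coactivators, rose from 1077 to 3192 counts. Its log2 ratio was 1.54 (interval 1.44 to 1.64), the highest of the neighbours with at least 50 counts. Cd36 and Oxct1 lost their calls at a log2 limit of 1 and when the coefficient of variation was set to 0.2, and at 0.4 none of these 6 genes was called. Whether the reads of Adipoq came from the same cells as those of Pparg and Cd36 was not tested.

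The other genes called had few reads and are named here after their values were seen. Prkaa2, a catalytic subunit of AMP-activated kinase, had 2 counts in NT and 10 in IL-4. Cpt1b, the muscle form of the outer-membrane transferase, had 10 counts in NT and was not listed in IL-4. Against a floor of 3 counts it was at least 3.40-fold lower. Lpl, the lipoprotein lipase, had 342 FPKM in NT and 213 FPKM in IL-4, a log2 ratio of -0.69 that stayed inside the limit.

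Of the regulators with at least 50 counts, those other than Pparg had ratios nearer to 0. Ppard, a receptor of the same family, had 492 counts in NT and 406 in IL-4, a log2 ratio of -0.30 (interval -0.50 to -0.11). Ppara, the receptor that dominates in liver, was not listed in NT and had 2 counts in IL-4. Esrra, the estrogen-related receptor that works with PGC-1 coactivators, had 379 and 446 counts, a ratio of 0.21. Rxra, the partner of all PPAR receptors, had 1577 counts in each library. Of the fatty acid binding proteins, Fabp5 was the most abundant, with 2207 FPKM in NT and 1796 FPKM in IL-4, a log2 ratio of -0.30, and Fabp4 had 599 and 715 FPKM, a ratio of 0.26. Hilpda, an inhibitor of ATGL found on droplets, had 305 and 217 counts, a ratio of -0.52 (interval -0.78 to -0.26).

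**Figure D4:**
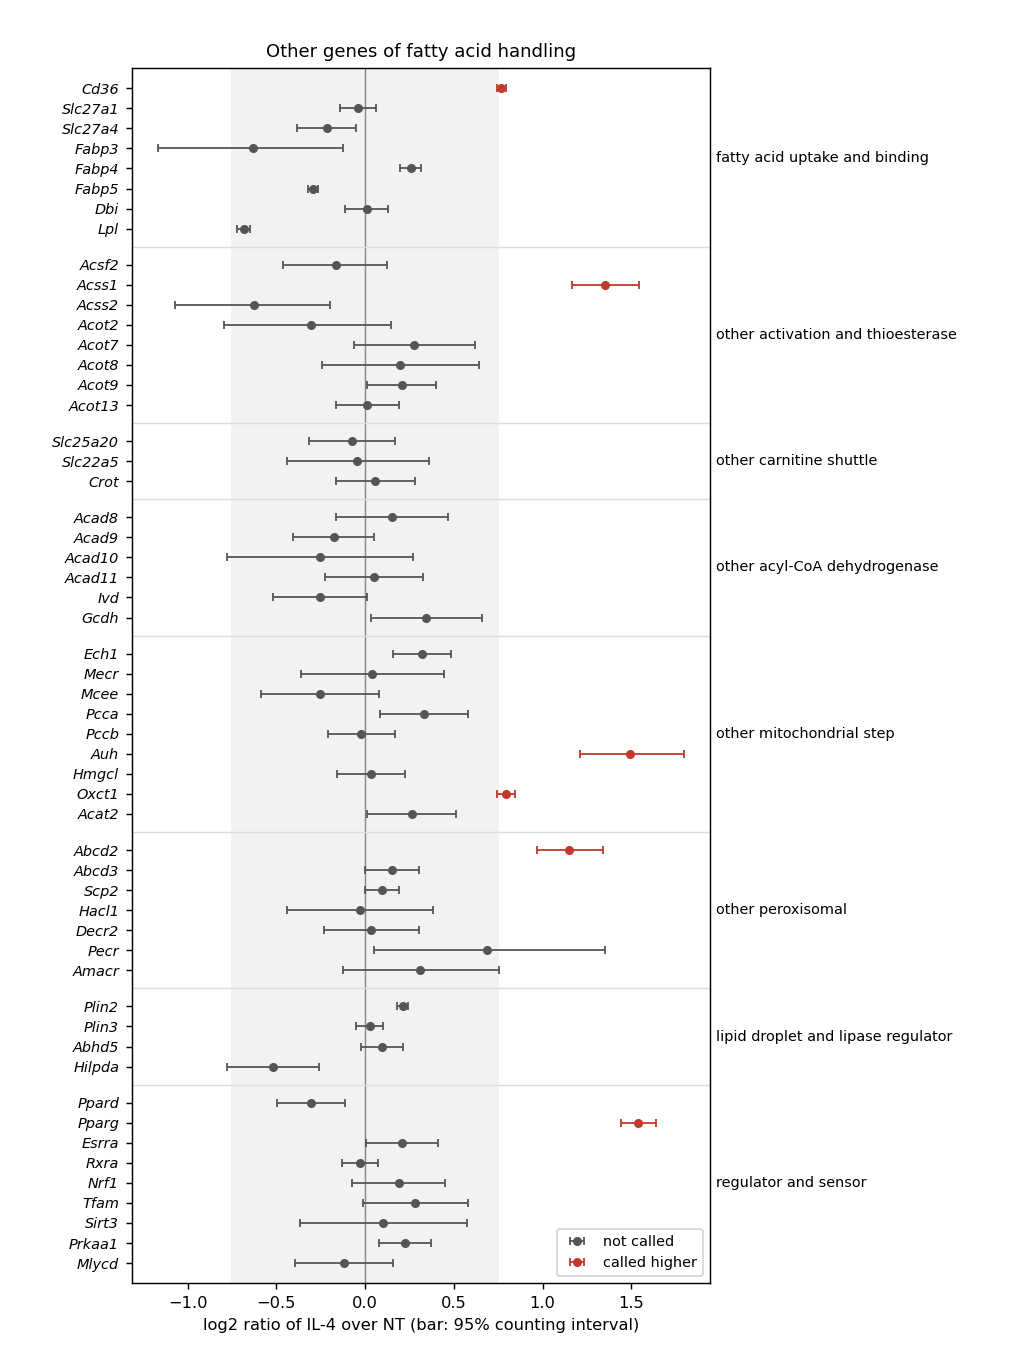
Log2 ratio of IL-4 over NT (circles) with 95% counting intervals (bars) for 54 other genes of fatty acid handling with at least 50 counts in the library with more, grouped by role, the band marking ratios within 0.75 of 0. Cd36, Acss1, Auh, Oxct1, Abcd2 and Pparg lie above the band and none of the 54 lies below it.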

How the data were processed

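RNA from 1 NT and 1 IL-4 library was sequenced on an Illumina HiSeq at BGI, and groups were taken from the sample titles. Per the submitters' processing notes and the methods of the study, reads were mapped to GRCm38/mm10 with Bowtie and quantified with RSEM (versions not given in the sources used here). The authors deposited an expected count per gene, not scaled for depth and not always whole, together with FPKM and a transcript length. A gene absent from a table was set to 0. Gene numbers were matched to symbols with a RefSeq table for GRCm38.p6 (15587 of 15623), which also gave coordinates, and promoter sequences were from RefSeq (GRCm38.p6). Counts were rounded for Clopper-Pearson intervals, which compare the reads of 2 libraries and not the conditions, and which treat PCR reads as independent molecules. The limit of 0.75 was that of the study. The procedure was tested on simulated data. Exon overlaps came from GENCODE vM21. The values of 2 neighbours, counted among the 66, are not reported here.

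The genes and lists were chosen with earlier results of these data known. Full values were given for called genes and for the 5 of highest mean FPKM, with other genes by step. Of the neighbours, called genes with at least 50 counts were named by rule. Other neighbours, such as Lpl and Hilpda, were named outside this rule with their values known. Alternatives were TMM scaling and an exact test at a coefficient of variation set to 0.2 or 0.4, called at a p-value of at most 0.05 (edgeR 4.0.16), size factors by median of ratios (DESeq2 1.42.0), leaving the 100 genes with most reads out of the total, adding 0.1 or 1 to FPKM, other limits, filters on low counts and subtraction of the length trend. Python 3.11.15, scipy 1.17.1, pandas 2.3.3 and R 4.3.3 were used.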

Additional observations from a re-analysis of the deposited data

How the results depend on the processing

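No paired analysis was possible because NT and IL-4 had a single library each. Over the 36 genes, 420 values under an alternative stayed on the same side of the limit, 11 lost a call and none gained one or turned direction among called genes. The 2 higher genes became 0 at a log2 limit of 1 and 0 with a coefficient of variation set to 0.4, and 1 with FPKM plus 1. The 2 lower genes became 1 with FPKM plus 0.1, with FPKM plus 1, with at least 50 counts in the library with more, with a coefficient of 0.2 and with the length trend subtracted, and 0 with a coefficient of 0.4. In each case but the last, the gene lost was Ppargc1a. The median log2 ratio of the list stayed between 0.09 and 0.15. Alternatives for the neighbours were added after seeing the data. Their 7 higher genes became 5 at a log2 limit of 1 (without Cd36 and Oxct1), 4 with a coefficient of 0.2 and 0 with 0.4. Their 1 lower gene became 0 with FPKM plus 1 and with at least 50 counts. With the length trend subtracted it became 2 (Fabp3 added, at -0.82). At a fold over 1.5 it became 4 (Lpl, Fabp3 and Acss2 added), and the 7 higher genes became 8. Of all 15593 genes tested, 3.04% were called higher and 3.72% lower at a log2 limit of 1. These shares were 4.06% and 4.88% with the length trend subtracted, and 5.52% and 8.84% at a fold over 1.5. Shares over all genes are not given for the other settings, so changed counts there cannot be set against a background. Scaling shifted ratios by at most 0.037. An added constant shrinks ratios of low genes, and the cause of other changes was not tested. Depth limits Ppargc1a and Ehhadh.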
